A study of Mus musculus with 20 samples.

Results

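The comparison covers the first day of reprogramming in control cells: every gene of the deposited table, 15757 in all, in the 2 control libraries of day 1 against the 2 control libraries of day 0. These are 4 of the 20 libraries of the series, chosen by their labels and not by their values. The cells were mouse embryonic fibroblasts of the OG2 line, in which a green fluorescent protein reports the activity of the Oct4 gene. All groups, day 0 included, received retroviruses carrying the reprogramming factors Oct4, Sox2, Klf4 and Myc together with an shRNA, in 2 rounds of infection. Growth in iCD1, a chemically defined medium without serum, followed, but whether day 0 cells had reached it is not given. In the control arm the shRNA was directed against luciferase, which mouse cells do not have. The other arm, used here only for comparison, carried an shRNA against Ddx10 and was sampled on the same days. The labels give no age of the embryos and do not say when day 0 was sampled relative to infection and the change of medium. The series calls its replicates biological but names no separate cultures or dates for them. The p-values below measure the spread between replicates pooled over all 20 libraries, which may be technical.

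Fibroblasts are mesenchymal cells that secrete matrix, pull on it with actin stress fibres and divide when serum supplies growth factors. Reprogramming by the 4 factors is known to begin with faster division and with loss of the fibroblast program, before epithelial genes and then the pluripotency network come on. Moving cells from serum into a defined medium is itself known to act on sterol synthesis, which answers to cholesterol in the medium, and on serum response factor (SRF), which answers to signals in serum. In these samples the effects of the factors, of the medium and of time after infection cannot be told apart.

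Values are the authors' normalized read counts per gene. A change is the difference of the mean log2(normalized read count + 1), day 1 minus day 0, with the standard error of a limma fit over all 20 libraries after the ± sign. A gene is said to have risen or fallen only if its Benjamini-Hochberg adjusted p was under 0.05. This scale understates changes of genes with low counts, and the sequencing depth behind the values is unknown. Column sums were 21257961 and 20832672 at day 0 and 17684499 and 17382222 at day 1, while the medians over genes lay between 339 and 343. The 10 most abundant genes held 7.70 and 7.25% of the sums at day 0 and 4.69 and 4.44% at day 1, and 739 and 660 genes against 380 and 477 were listed at 0. Replicates correlated across genes with r of 0.986 at day 0 and 0.981 at day 1, and a typical gene (the median) differed between its replicates by 0.163 log2 units at day 0 and by 0.252 at day 1, the largest such value of the 10 groups.

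Most genes moved within a day. Of 15757 genes, 8664 (55.0%) changed in the control arm, 4452 (28.3%) upward and 4212 (26.7%) downward. Of all 15757 genes, 1999 (12.7%) rose and 1229 (7.80%) fell by more than 2-fold, and 209 rose and 120 fell by more than 8-fold. Scaling each library to the same column sum moved the median change of all genes from 0.01 to 0.26 and the calls to 6308 higher and 2549 lower. Changes of less than about that size are therefore read below relative to the scaling, and where the count of a list described below moved by over 1.5 times, the count under the other scaling is given beside it. Quantile scaling, which gives all libraries 1 distribution, is treated in the same way. A fit on the 4 compared libraries alone called 5816 genes, 2944 of them higher. Weighting libraries by quality gave those of control day 1 the lowest weights (0.352 each) and called 6242 genes, 3248 of them higher. The fit over all 20 libraries pools the spread of each gene over all groups, and so can understate it at control day 1.

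**Figure D1:**
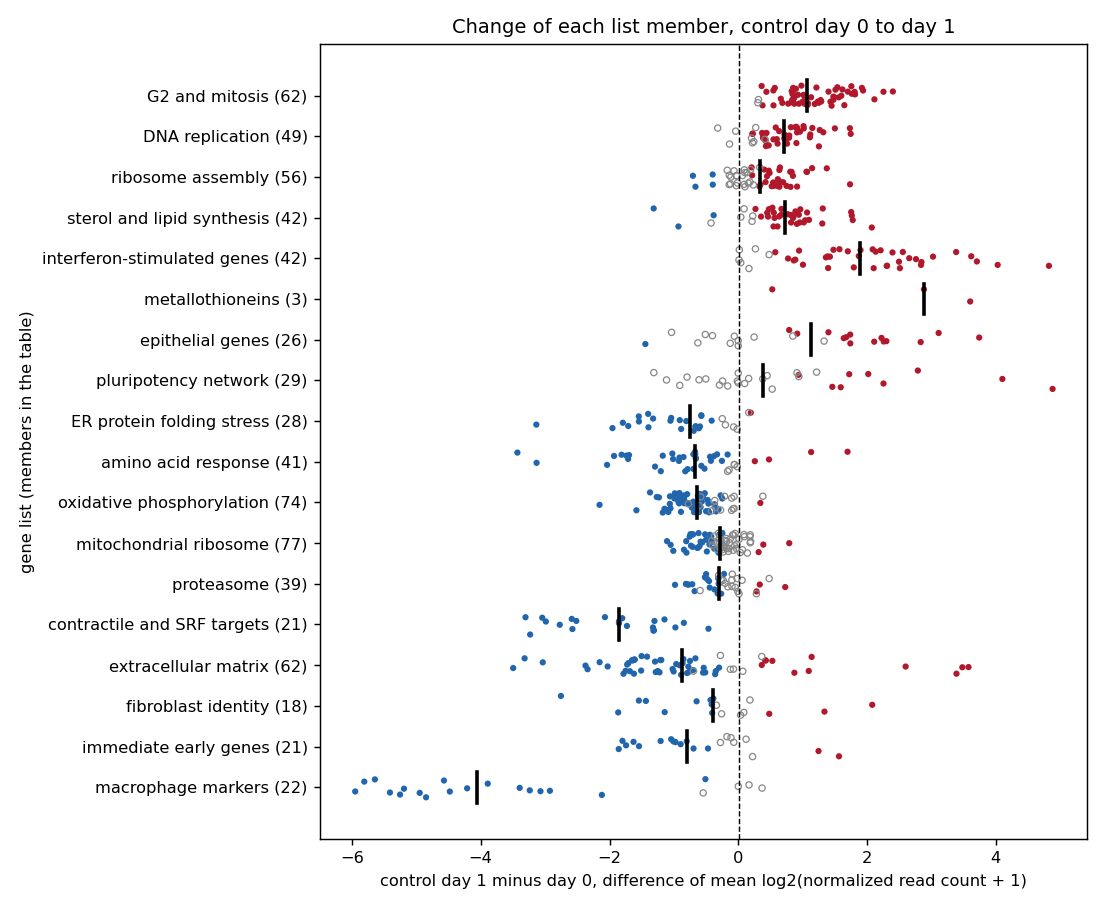
Change of each member of 18 gene lists from day 0 to day 1 in the control arm, on the log2(normalized read count + 1) scale. Filled points are members that rose (red) or fell (blue) by the limma test, open points did not pass, bars mark list medians and the dashed line marks the median of all genes. Members of the mitosis list all lie to the right of 0, and those of the contractile list all lie to the left.

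Genes that drive and carry out cell division were higher on day 1. In the list for G2 and mitosis, 60 of 62 members rose and 0 fell, with a median of 1.08, against 28.3% risen and a median of 0.01 among all genes. For Hmmr, a spindle protein, the counts were 688 and 761 at day 0 and 2533 and 3045 at day 1. Kif23, the motor that builds the midbody between daughter cells, stood at 486 and 499.9 at day 0 and 1672 and 1666 at day 1, and Anln, a scaffold of the contractile ring, at 2678 and 2629 at day 0 and 7139 and 8360.2 at day 1. The days did not overlap for any of these 3 genes, as for 70.1% of all genes. The same share applies wherever genes are said below to stand apart between days. Their changes were 1.94 ± 0.09, 1.76 ± 0.09 and 1.54 ± 0.08 (limma adjusted p = 1.80e-10, 3.22e-10 and 7.77e-10). By role, 18 of 18 genes of the spindle and cytokinesis rose (median 1.44), 15 of 15 of the kinetochore and its checkpoint (1.08), 14 of 15 of chromosome structure (1.08) and 13 of 14 of entry into mitosis (0.96). The largest change among the named mitotic genes was that of Sgol2, which protects cohesion at centromeres, at 242 and 256 at day 0 and 1196 and 1457 at day 1 and 2.40 ± 0.13. Cdk1, the kinase that starts mitosis, was 1452 and 2110.5 at day 0 and 1784 and 2654 at day 1, with replicates that overlapped between days, and did not pass the test (0.31 ± 0.20, limma adjusted p = 0.213). It passed without control replicate 2 of day 0 (limma adjusted p = 0.044), without control replicate 1 of day 1 (0.0351) and after scaling by column sum (0.0317).

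Replication genes were also higher. Of 49 members, 41 rose and 0 fell (median 0.72), among them 12 of 12 that load the replicative helicase at origins, 24 of 31 of the replication fork and 5 of 6 that supply deoxynucleotides. Mcm5, a subunit of that helicase, had counts of 1721 and 1626 at day 0 and 3252 and 3064 at day 1. Pcna, the sliding clamp of DNA polymerase, had 2429 and 2408 at day 0 and 4997 and 4425 at day 1. Dna2, a nuclease that trims Okazaki fragments, had 120.0 and 109 at day 0 and 388 and 386 at day 1. All 3 stood apart between days, with changes of 0.92 ± 0.09, 0.96 ± 0.07 and 1.75 ± 0.13. Without control replicate 2 of day 1, 1 member of the list fell. In the switch from G1 to S phase, 9 of 18 members rose and 2 fell, or 15 and 1 after scaling by column sum and 9 and 0 after quantile scaling. E2f8, a repressor that E2F factors induce in S phase, rose from 217 and 209 to 1364 and 1320.1 (2.65 ± 0.09). Cyclin D1 (Ccnd1) rose by 0.35 ± 0.05 (25168 and 26216 at day 0 and 33474 and 32242 at day 1), while cyclin D2 (Ccnd2), at 34187 and 30777 at day 0 and 18835 and 18586 at day 1, fell (-0.79 ± 0.08) and lost its call after quantile scaling (-0.12, limma adjusted p = 0.19). Among 7 inhibitors of cyclin-dependent kinases, 1 rose and 3 fell, but 3 rose and 2 fell after scaling by column sum and 1 of each after quantile scaling. Without control replicate 2 of day 1, 2 rose. Cdkn1c, which encodes p57, fell from 619 and 721 to 356 and 396 (-0.83 ± 0.16), and Cdkn2c, which encodes p18, rose from 208 and 289 to 433 and 449 (0.84 ± 0.12). Cdkn2a, whose products p16 and p19 limit reprogramming, had counts of 652 and 716 at day 0 and 886 and 621 at day 1, overlapping between days, and passed only without control replicate 2 of day 1 (limma adjusted p = 0.0202) or after scaling by column sum (0.0249).

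Promoters of mitotic genes are known to carry CCAAT boxes and a cell cycle homology region (CHR), and those of replication genes E2F sites. RefSeq promoters of GRCm38.p6, the assembly also called mm10, were found for 11344 genes of the table. The 250 bases before the start were searched on both strands for the CHR (TTTGAA or TTCGAA), for CCAAT and for E2F (TTCCCGC or TTGGCGC). Of 47 mitotic genes with a promoter, 18 (38.3%) held a CHR and 34 (72.3%) a CCAAT, against 12.4% and 36.2% of all promoters. The CCAAT share was not particular to mitotic genes. It was 59.0% in the replication list, and 83.3% and 62.5% in the ER folding and contractile lists below, most of whose members fell. An E2F motif was in 12 of 39 replication genes (30.8%) and in 9.66% of all. Among mitotic genes, 17 of 18 with a CHR rose (median 0.98), as did 28 of 29 without (1.19). Cdc20, the activator of the anaphase-promoting complex, which rose from 2131 and 2189 to 3848 and 3136, and Top2a, the topoisomerase that separates sister chromosomes, are shown because their CHR lies close to the start, at -18 and -23. Mcm5 is shown for its pair of E2F motifs. Each line gives 90 bases of the gene's sense strand, 5′ to 3′, with the motif of that list in capitals (CHR in Cdc20 and Top2a, E2F in Mcm5). In Top2a and Mcm5 the motif lies on the other strand and reads in reverse complement. The stretches are chr4:118437344-118437433 on the minus strand, chr11:99024190-99024279 on the minus strand and chr8:75109318-75109407 on the plus strand.
Cdc20: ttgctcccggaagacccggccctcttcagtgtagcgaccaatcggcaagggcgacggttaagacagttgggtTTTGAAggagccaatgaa
Top2a: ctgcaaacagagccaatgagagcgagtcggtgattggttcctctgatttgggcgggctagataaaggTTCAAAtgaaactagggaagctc
Mcm5: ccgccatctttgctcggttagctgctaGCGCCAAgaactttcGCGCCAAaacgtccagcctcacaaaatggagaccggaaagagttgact

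Enzymes of sterol and fatty acid synthesis were higher on day 1. In that list 34 of 42 members rose and 3 fell (median 0.72), with 18 of 20 enzymes of the sterol pathway and 8 of 8 fatty acid enzymes among those that rose. Hmgcs1, which makes the precursor HMG-CoA, had counts of 3333 and 3193 at day 0 and 5508 and 6278 at day 1, and Idi1, which makes the isoprene units, had 1577 and 1893 at day 0 and 6383 and 5505 at day 1. Fasn, the fatty acid synthase, had 12443 and 11150 at day 0 and 24464 and 20911 at day 1. Day 1 was above day 0 in both libraries for all 3, with changes of 0.85 ± 0.07, 1.78 ± 0.14 and 0.94 ± 0.09 (limma adjusted p = 7.57e-08, 9.50e-08 and 3.81e-07). Srebf2, the transcription factor over these genes, did not pass (5632 and 5221 at day 0 and 5846 and 5317 at day 1), though it rose by 0.30 after scaling by column sum and by 0.21 after quantile scaling. The members that fell were Insig2 (-0.93 ± 0.19), which retains that factor in the endoplasmic reticulum, Mylip (-1.31 ± 0.16), a ubiquitin ligase, and Nr1h2, an oxysterol receptor, whose call was lost without control replicate 1 of day 0 (limma adjusted p = 0.0741) or control replicate 2 of day 1 (0.206). Mylip is known as a target of the oxysterol receptors, and so is the cholesterol exporter Abca1, which went the other way, from 1976 and 1436 to 6524 and 7719 (2.07 ± 0.12).

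Chaperones of the endoplasmic reticulum (ER) fell. Cells that secrete much protein need these genes, and XBP1 and ATF6 raise them when unfolded protein builds up. Of 28 genes of this response, 22 fell and 1 rose, with a median of -0.75, against 26.7% fallen among all genes. After scaling by column sum 21 fell and 3 rose (median -0.49), and after quantile scaling 20 and 2. The chaperone BiP (Hspa5) had counts of 31121 and 34796 at day 0 and 11416 and 13721 at day 1. Calreticulin (Calr), which folds glycoproteins, had 33109 and 35743 at day 0 and 12286 and 11308 at day 1, and the disulfide isomerase Pdia6 had 16254 and 16306 at day 0 and 4578 and 4819.6 at day 1. Both day 1 libraries were below both of day 0 in each case, with changes of -1.39 ± 0.10, -1.55 ± 0.06 and -1.79 ± 0.06 (limma adjusted p = 1.01e-08, 1.46e-11 and 5.79e-12). Of 15 chaperones 12 fell, as did 8 of 8 genes of ER-associated degradation. Xbp1 itself fell from 2863 and 3389.5 to 903 and 1004. Atf6 was the member that rose (0.19 ± 0.07), and that call was lost without control replicate 1 of day 0 (limma adjusted p = 0.0519), control replicate 2 of day 0 (0.126) or control replicate 2 of day 1 (0.19).

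The ER stress element (ERSE) is a CCAAT, any 9 bases and CCACG, and is known to bind ATF6 and XBP1. It was in 9 of 24 promoters of the list (37.5%), on either strand, and in 18 of 11344 promoters in all (0.159%). Of the 9 genes with an ERSE 7 fell (median -1.32), and of the 15 without one 12 fell (-0.67). A CCAAT, which every ERSE contains, was in 20 of the 24 (83.3%). The 4 stretches below hold the ERSE of 4 of the most abundant genes of the list, in capitals, and each ends at or before the base ahead of the RefSeq start. They are chr2:34772000-34772089 (plus strand), chr8:84847040-84847129 (minus), chr10:86705498-86705587 (minus) and chr12:17266455-17266544 (plus). In Calr and Hsp90b1 the element lies in reverse, so that its CCACG reads as CGTGG. Hsp90b1, the chaperone GRP94, fell from 28472 and 32218 to 15261 and 19610 (-0.81 ± 0.13) and was the 1 gene of the 4 without a call after quantile scaling (-0.10, limma adjusted p = 0.557).
Hspa5: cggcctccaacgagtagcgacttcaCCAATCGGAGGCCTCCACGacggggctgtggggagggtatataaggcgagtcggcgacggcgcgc
Calr: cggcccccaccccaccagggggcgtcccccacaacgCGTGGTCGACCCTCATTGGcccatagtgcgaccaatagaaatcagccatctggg
Hsp90b1: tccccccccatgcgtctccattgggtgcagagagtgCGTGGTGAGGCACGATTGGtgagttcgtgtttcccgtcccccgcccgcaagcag
Pdia6: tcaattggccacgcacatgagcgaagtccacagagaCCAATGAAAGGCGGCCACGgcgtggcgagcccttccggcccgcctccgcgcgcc

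Genes that answer to amino acid shortage through ATF4 were lower as well. Of 41 members 32 fell and 4 rose (median -0.67), or 26 and 7 after scaling by column sum (median -0.41). Without control replicate 2 of either day, 2 rose. Trib3, a pseudokinase that ATF4 induces, had counts of 433 and 486 at day 0 and 58.05 and 29.8 at day 1, and Pycr1, which makes proline, had 579 and 638 at day 0 and 85.1 and 54.9 at day 1. Asns, the asparagine synthetase, had 2932 and 3609 at day 0 and 1421 and 1404 at day 1. The changes were -3.43 ± 0.29, -3.13 ± 0.23 and -1.20 ± 0.10, with no overlap between days (limma adjusted p = 1.07e-07, 2.25e-08 and 6.65e-08). Atf4 fell from 4747 and 4716 to 2951 and 3003, and 9 of 10 genes grouped under synthesis of serine, asparagine, proline and folate units fell. Members of the list that fell included the metabolic enzymes Aldh1l2 (-2.04 ± 0.15) and Pck2 (-1.93 ± 0.09). Of the 4 that rose, 2 were transporters. Slc7a11, which exchanges glutamate for cystine, rose from 111 and 144 to 412 and 415, and Slc1a5, a glutamine transporter, from 693 and 667 to 1675 and 1328. The other 2 that rose, Stc2 and Eprs, lost their calls without control replicate 2 of day 0 (limma adjusted p = 0.096 and 0.0696) or of day 1 (0.129 and 0.138), and Stc2 also without either replicate 1 (0.142 and 0.0915).

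**Figure D2:**
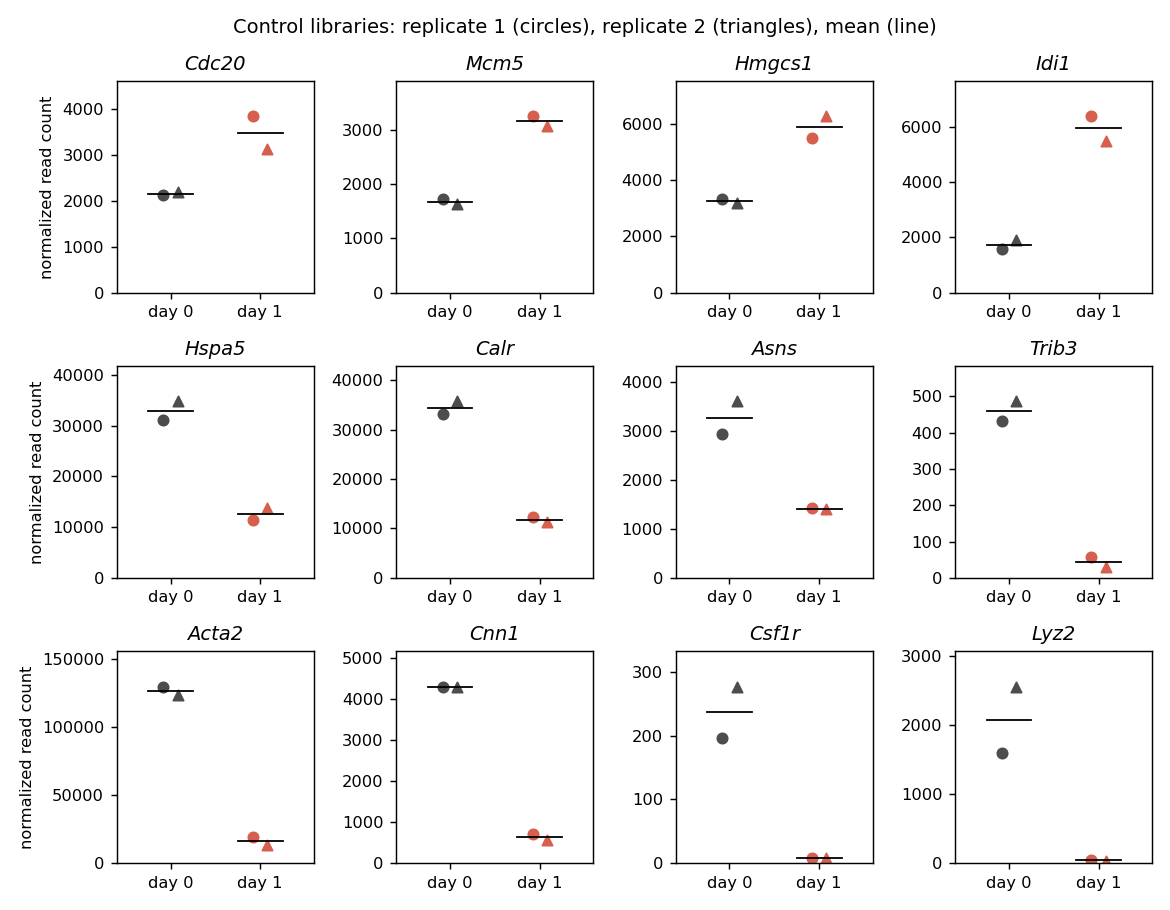
Normalized read counts of 12 genes in each control library at day 0 and day 1, on linear axes from 0, with circles for replicate 1, triangles for replicate 2 and lines for the mean. In each panel both libraries of 1 day lie above both of the other, as for Acta2, with 129680 and 123240 at day 0 and 18850 and 13452 at day 1.

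The contractile apparatus fell as a block. Of 21 measured members 21 fell, with a median of -1.85, or 19 after scaling by column sum. Acta2, the smooth muscle actin of stress fibres, had counts of 129680 and 123240 at day 0 and 18850 and 13452 at day 1. Tagln, an actin-bundling protein, had 57182 and 53569 at day 0 and 6084 and 5693 at day 1, and Ctgf, a matrix protein that SRF and YAP induce, had 56336 and 47408 at day 0 and 8524 and 8674 at day 1. The changes were -2.99 ± 0.14, -3.23 ± 0.14 and -2.59 ± 0.09 (limma adjusted p = 2.43e-10, 6.43e-11 and 8.22e-12). Counts were lower still on later days: the mean of Acta2 was 1010.5 ± 80.2 at day 3 and 462 ± 15.9 at day 7, and that of Tagln 252 ± 55.6 and 88.9 ± 9.92 (n = 2 each). Cnn1, calponin, went from 4299 and 4299.6 to 705 and 560.3, and its call was lost when libraries were weighted by quality (limma adjusted p = 0.0831).

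SRF binds the CArG box (CC, then 6 bases of A or T, then GG). It was present in 4 of 16 promoters of this list and in 1.21% of all promoters. All 4 genes that hold it fell (median -1.69), as did 12 of 12 without it in this window (-1.83). The boxes of Cnn2, an actin-binding calponin that fell from 22908 and 24349 to 5972 and 5287, and of Myl9, a regulatory light chain of myosin that fell from 10881 and 10174 to 1454 and 1116, are shown in capitals. They lie in chr10:79988510-79988599 and chr2:156775263-156775352, both on the plus strand.
Cnn2: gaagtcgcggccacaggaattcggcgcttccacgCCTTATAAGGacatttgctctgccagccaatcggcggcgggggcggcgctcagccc
Myl9: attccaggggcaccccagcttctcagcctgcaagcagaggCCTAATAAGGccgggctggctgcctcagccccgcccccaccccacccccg

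Matrix genes followed. Of 62 members 45 fell and 11 rose (median -0.88), with 13 of 18 collagens and 11 of 12 enzymes that modify or cross-link collagen among those that fell. Thbs1, thrombospondin, which was among the most abundant transcripts at day 0, had counts of 240510 and 215310 at day 0 and 43160 and 44682 at day 1. Loxl3, a collagen cross-linking oxidase, had 6682 and 6371 at day 0 and 799 and 789.5 at day 1. Their changes were -2.37 ± 0.09 and -3.04 ± 0.09, with no overlap between days. The main fibrillar collagen Col1a1 fell from 185680 and 174870 to 57876 and 60494. Members that rose included Dcn, decorin, a proteoglycan that binds collagen and TGF-beta (706 and 603 at day 0 and 3900 and 4019.6 at day 1), and the protease Mmp3 (5.26 and 10.1 at day 0 and 99.5 and 85.1 at day 1). For the most abundant genes the size depended on scaling: quantile scaling turned Col1a2 from -1.02 ± 0.08 to 0.13, Fn1 from -0.96 ± 0.08 to 0.15 and Timp3 from -0.35 ± 0.07 to 0.27. In the list of fibroblast identity 10 of 18 members fell and 3 rose (6 and 6 after scaling by column sum, 6 and 5 after quantile scaling). The homeobox factor Prrx2 fell from 2261 and 2725 to 416 and 323 and the repressor of epithelial genes Snai1 from 828 and 712 to 209 and 212, whereas Zeb1 (1338 and 1129 at day 0 and 1315 and 1208 at day 1) and Prrx1 (8119.6 and 9779 at day 0 and 7497 and 7397 at day 1) did not pass. Prrx1 passed without control replicate 1 of day 0 (-0.39, limma adjusted p = 0.0204) and Zeb1 after scaling by column sum (0.30, 0.01). The members that rose were Twist1 (0.48 ± 0.07) and the surface proteins Cd34, from 1565 and 1961 to 7595 and 7238, and Ly6a, from 2587 and 2695 to 6509 and 6853.

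Genes of several signalling pathways changed. In the TGF-beta list 11 of 17 members fell and 5 rose. All 4 genes in the ligand group fell, for example Tgfb3 (4461 and 4588 at day 0 and 1284 and 1196 at day 1), and 6 of 7 inhibitors and targets fell, such as the feedback inhibitor Smad7 (-1.94 ± 0.28). The fall of the ligand Tgfb2 (-0.40) lost its call after scaling by column sum (-0.13, limma adjusted p = 0.386). It also lost it when libraries were weighted by quality (0.0918). Of 6 receptors and SMADs 4 rose, for example the receptor Tgfbr2 (4094 and 3978 at day 0 and 6977 and 6925 at day 1). The rise of the receptor Tgfbr3 (0.38) lost its call when libraries were weighted by quality (limma adjusted p = 0.114). Tgfbi, a matrix protein named for its induction by TGF-beta, was the 1 target that rose (178 and 216 at day 0 and 618 and 589 at day 1). In the BMP list 6 of 18 members rose and 9 fell: 6 of 9 receptors, SMADs and targets fell and 1 rose, while 5 of 9 ligands and antagonists rose and 3 fell. Id3, an inhibitor of differentiation factors, had counts of 5698 and 6074 at day 0 and 459 and 390.4 at day 1, Id1 had 3618 and 3365 at day 0 and 1070.1 and 589 at day 1, and the feedback inhibitor Smad6 had 1098 and 1173 at day 0 and 116 and 107 at day 1. Among ligands and antagonists, Bmp4 fell (-1.10 ± 0.17) and the antagonist Grem1 rose (1.14 ± 0.12).

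Wnt targets went up. Of 11 targets 8 rose and 0 fell, with a median of 1.68. Axin2, a feedback inhibitor that beta-catenin induces, had counts of 56.98 and 47.8 at day 0 and 741 and 549 at day 1, Tcf7, a transcription factor of the pathway, had 40.7 and 37.3 at day 0 and 280.3 and 226 at day 1, and the receptor Lgr5 had 24.2 and 23.4 at day 0 and 231 and 225 at day 1. Day 1 was above day 0 in both libraries of each. Of 9 ligands and antagonists 5 fell, Dkk3 (-1.63 ± 0.13) and Wnt4 (-2.91 ± 0.33) among them, and 1 rose. In the whole list of 20 genes, 9 rose and 5 fell, or 10 and 3 after scaling by column sum. Of those that fell, Sfrp1 lost its call after scaling by column sum (limma adjusted p = 0.0629), and Wnt5b lost it there (0.235), without control replicate 1 of day 0 (0.248) and without either replicate of day 1 (0.0704 and 0.0653). Lef1, counted among the 8, lost its call without control replicate 2 of either day (limma adjusted p = 0.0645 for day 0 and 0.093 for day 1).

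Growth factor feedback was mixed. Of 21 immediate early genes 13 fell and 2 rose (1 after quantile scaling), Fos from 475 and 408 to 1361 and 1250.1 and Egr2, whose call was lost without control replicate 2 of day 0 (limma adjusted p = 0.095) or control replicate 1 of day 1 (0.0931). Fosl2 fell from 5537 and 5676 to 1810.2 and 1549. In the list of FGF and ERK feedback 6 of 17 members rose and 5 fell (11 rose after scaling by column sum), with Etv4 and Etv1 higher (1.09 ± 0.16 and 1.67 ± 0.14) and Spry1 and Dusp5 lower (-1.33 ± 0.17 and -1.31 ± 0.12). In the LIF and STAT3 list 6 of 17 rose and 8 fell: Il6ra, a receptor subunit, rose from 249.8 and 185 to 943 and 784 and Socs3 from 639 and 643 to 1118 and 1061, while Cish and Pim1 fell (-2.40 ± 0.17 and -1.39 ± 0.10). Txnip, which FOXO and glucose-sensing factors raise, fell from 3531 and 3514 to 817 and 886. In the insulin and IGF list 3 of 20 members rose and 10 fell (8 and 6 after scaling by column sum, 5 and 9 after quantile scaling, and 5 rose without control replicate 1 of day 0), and Igfbp7, a secreted binding protein, fell from 13309 and 12065 to 4583 and 3526.

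Most macrophage markers fell to low counts. Embryonic fibroblast cultures are known to hold some macrophages, and of 22 measured markers 18 fell and 0 rose (median -4.05). Both day 1 libraries were below both of day 0 in all 18. The days did not overlap, in either direction, for 70.1% of all genes. The summed counts of all 22 were 3587 and 5166 at day 0 and 668 and 596 at day 1. Lyz2, lysozyme, had counts of 1593 and 2559 at day 0 and 38.9 and 31.5 at day 1, and Csf1r, the receptor for macrophage colony-stimulating factor, had 197 and 278 at day 0 and 7.02 and 7.26 at day 1. In both day 1 libraries 14 of the 22 were under 10. Not all were low, and the next 2 genes were chosen after their values were seen: Laptm5, a lysosomal membrane protein of blood cells, had 258 and 263 at day 0 and 282 and 241 at day 1 and the integrin Itgam had 63.6 and 103 at day 0 and 65.8 and 46.3 at day 1, both overlapping between days, while the endosomal protein Cd68 had 193 and 234 at day 0 and 167 and 133 at day 1. The call of Cd68 was lost without control replicate 2 of day 0 (limma adjusted p = 0.0836) or of day 1 (0.0861) and after scaling by column sum (0.156). C1qc, a complement subunit, had 54.7 and 67.7 at day 0 and 0 and 0 at day 1, and Tyrobp, an adaptor of their receptors, was also listed at 0 in both libraries of day 1. In these bulk samples, fewer macrophages and less RNA in each cannot be told apart. Several of the largest falls in the table were leukocyte genes outside the list, chosen by size: Rgs1 (365 and 237 at day 0 and 0.514 and 1.17 at day 1), Clec4d (144 and 172 at day 0 and 0 and 4.30 at day 1), Gp49a (77.1 and 97.8 at day 0 and 1.86 and 1.31 at day 1) and Cybb, a subunit of the phagocyte oxidase, which was listed at 0 in both day 1 libraries. The sum was 3859 and 2939.9 at day 5, when Lyz2 stood at 7.11 ± 4.64 and Mpeg1, a perforin-like gene of macrophages, at 1294 ± 319 against 15.7 ± 10.8 at day 1 and 357 ± 90.7 at day 0. Csf1, the ligand of Csf1r, fell from 11844 and 10326 to 4834 and 2786. The part of such cells in other changes was not tested.

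Markers of other cell types moved without a direction shared between the lists. Of 3 keratinocyte genes 2 rose and 0 fell, with changes from 0.188 to 2.841. Of 9 endothelial genes 2 rose and 2 fell, and Pecam1 stood at 16.7 and 0.886 at day 0 and 2.41 and 0 at day 1. Changes in this list ran from -1.754 to 3.382. The summed counts of the 9 genes were 1422.5 and 1324.7 at day 0 and 1856.2 and 2512.8 at day 1. Without control replicate 2 of day 1, or after scaling by column sum, 1 endothelial gene fell, and Pecam1 passed without control replicate 2 of day 0 (limma adjusted p = 0.000548) or control replicate 1 of day 1 (0.0256). None of 3 skeletal muscle genes passed the test, and after quantile scaling 1 fell. Among 6 adipocyte genes 2 rose and 4 fell, with changes from -4.445 to 1.624. Those that fell included the transcription factor Cebpa (302 and 294 at day 0 and 43.4 and 30.4 at day 1) and the fatty acid transporter Cd36 (288 and 318 at day 0 and 12.6 and 13.3 at day 1). The summed counts of the 6 genes were higher on day 1, at 1449.7 and 1385.5 at day 0 and 1711.6 and 1588 at day 1. Of 8 bone and cartilage genes 2 rose and 3 fell (median 0.07). The phosphatase Alpl rose from 4.49 and 26.1 to 48.8 and 96.2 (2.51 ± 0.59, limma adjusted p = 0.00273). Sp7, the transcription factor of bone-forming cells, fell from 42.1 and 58.7 to 3.03 and 0, and Col2a1, the cartilage collagen, from 4003 and 4055 to 718 and 769.5.

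The reprogramming factors were high on both days. Pou5f1, which encodes Oct4, had counts of 15781 and 13741 at day 0 and 11364 and 11711 at day 1 and Sox2 had 8212 and 6869 at day 0 and 9808 and 8434 at day 1. Klf4 had 12521 and 11014 at day 0 and 15774 and 13069 at day 1 and Myc had 2087 and 1836 at day 0 and 1671 and 1665 at day 1. Gene counts do not separate viral from cellular copies. The changes, -0.35 ± 0.06, 0.28 ± 0.08, 0.29 ± 0.09 and -0.23 ± 0.09, were small, and none kept its call in a fit on the 4 libraries alone (limma adjusted p = 0.054, 0.165, 0.142 and 0.182). Sox2 and Klf4 lost theirs without control replicate 2 of day 0 (limma adjusted p = 0.165 and 0.112) or control replicate 1 of day 1 (0.115 and 0.132), and Myc without control replicate 1 of day 0 (0.323) or either replicate of day 1 (0.096 and 0.111). After scaling by column sum the change of Myc was 0.03 and that of Pou5f1 -0.09.

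Of 29 genes of the pluripotency network 9 rose and 0 fell on day 1, a share close to the 28.3% of all genes. Core members were still near 0: Nanog had counts of 2.51 and 6.53 at day 0 and 3.28 and 0 at day 1, Sall4 0 and 0.59 at day 0 and 1.70 and 0 at day 1 and Lin28a 1.78 and 0.687 at day 0 and 0 and 0 at day 1, and 7 members were listed at 0 in both day 1 libraries. After quantile scaling 7 rose and 2 fell. Without control replicate 1 of day 0 or of day 1, 2 and 1 members fell, Nanog among them (limma adjusted p = 0.0447 and 0.00324). Other members were already higher. Tdh, the threonine dehydrogenase of mouse pluripotent cells, had 3.85 and 4.92 at day 0 and 156 and 158 at day 1, and Tfcp2l1, a transcription factor of the naive state, had 5.08 and 9.85 at day 0 and 115 and 167 at day 1. L1td1, an RNA-binding protein, had 159 and 96.6 at day 0 and 888 and 838 at day 1. These changes were 4.88 ± 0.10, 4.10 ± 0.43 and 2.79 ± 0.18 (limma adjusted p = 1.21e-14, 2.94e-06 and 1.22e-08). Nanog reached a mean of 252 ± 10.4 at day 7, when Tdh stood at 2364 ± 107.

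Part of the epithelial genes rose. Of 26 members 14 rose and 1 fell (median 1.13), or 13 and 2 after quantile scaling. Cdh1, E-cadherin, which joins epithelial cells, had counts of 40.2 and 20.04 at day 0 and 389.8 and 396 at day 1, Dsp, desmoplakin, had 762 and 518 at day 0 and 2691 and 2745 at day 1, and the membrane protease St14 had 85.3 and 74.2 at day 0 and 221 and 298 at day 1. Epcam, an adhesion protein of epithelia, was at 5.26 and 1.01 at day 0 and 40.5 and 21.7 at day 1. All 4 stood apart between days. Ocln and Esrp1, which act in tight junctions and in epithelial splicing, were still near 0, at 1.93 and 1.48 at day 0 and 3.18 and 0 at day 1 and 2.25 and 0 at day 0 and 1.73 and 0 at day 1. The keratin Krt19 was the member that fell (1732 and 1646 at day 0 and 671 and 574 at day 1), and without control replicate 1 of day 1 the number that fell was 3. On the later days the median of the list went to 2.69, 5.54 and 6.39 above day 0 at days 3, 5 and 7.

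**Figure D3:**
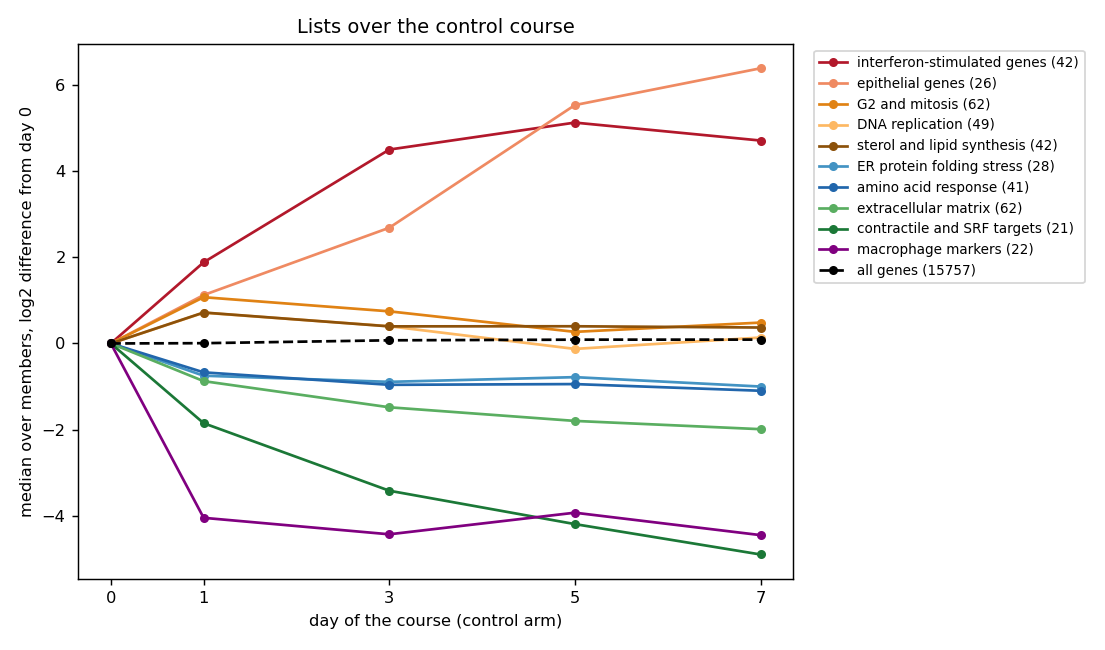
Median change of the members of 10 gene lists and of all genes relative to day 0 at days 1, 3, 5 and 7 of the control arm, in log2(normalized read count + 1). Mitosis and replication genes were highest at day 1 (medians 1.08 and 0.72), while the medians of the interferon and epithelial lists were higher, and that of the contractile list lower, at days 3, 5 and 7 than at day 1.

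Genes of neurons were among the 12 largest rises, ranked over genes with a name (not a clone name or bare identifier) and a mean of at least 50 in the higher day. Nefl, the light neurofilament of neurons, had counts of 30.2 and 35.5 at day 0 and 1654 and 1604 at day 1, and Gad2, which makes the transmitter GABA, had 1.19 and 0.919 at day 0 and 105 and 103 at day 1. Stra6, a receptor for retinol-binding protein, had 1.26 and 0 at day 0 and 166 and 99.9 at day 1. Their changes were 5.59 ± 0.10, 5.67 ± 0.20 and 6.43 ± 0.32. The other genes of these 12 were Tmprss11b, Mgat4c, Npy2r, Aldh3a1, Pyhin1, Calcb, Corin, Ces1f and Fam107a, with changes of 6.73, 6.52, 5.86, 5.55, 5.42, 5.40, 5.31, 5.16 and 5.10. The ranking leaves out ENSMUSG00000103508, an unnamed gene with the highest fitted change in the table, which was listed at 0 in both libraries of day 0 and stood at 299 and 1293 at day 1, values that differ between the replicates by more than those of the named genes above. It also leaves out the clones 4931408C20Rik, at 5.26 and 0 at day 0 and 252 and 313 at day 1, and 1700084C01Rik, at 0 and 0 at day 0 and 78.7 and 69.3 at day 1. Nefl and Gad2 were at 6574 ± 70.5 and 691 ± 112 on day 3 and at 2929 ± 123 and 219.8 ± 13.7 on day 7. Neural genes as a list did not rise together: 7 of 14 rose and 2 fell, namely the progenitor filament Nes (9479.8 and 8366 at day 0 and 5448 and 4679 at day 1) and the tubulin regulator Stmn2 (3784 and 3747 at day 0 and 2537 and 2707 at day 1). Atoh8, a transcription factor, was the member of the 12 largest falls, ranked in the same way, with the most counts at day 0 after Lyz2 (916 and 923 at day 0 and 31.3 and 20.3 at day 1).

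Interferon-stimulated genes rose. Of 42 members 36 rose and 0 fell (median 1.89), among them 32 of 33 effectors and 4 of 5 signalling genes, but 0 of 4 of antigen presentation. Oas2, which senses double-stranded RNA, had counts of 19.8 and 10.2 at day 0 and 371 and 501 at day 1, and Irf7, the transcription factor that amplifies the response, had 46.1 and 77.4 at day 0 and 444 and 424 at day 1. The changes were 4.83 ± 0.27 and 2.84 ± 0.37 (limma adjusted p = 8.93e-09 and 2.23e-05). Levels were higher on later days: Irf7 stood at 1821 ± 59.5 at day 3 and 3018 ± 116 at day 5 (n = 2 each), and the median of the list was 4.51 above day 0 at day 3. Of 24 chemokine and inflammation genes 8 rose and 8 fell (12 rose after scaling by column sum). Ccl2, which attracts monocytes, rose from 508 and 517 to 1266 and 1119 and the alarmin Il33 from 18.01 and 35.99 to 299 and 259, while Cxcl12, a chemokine of stromal cells, fell from 5965 and 6897 to 871 and 711.

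Genes of metal and redox handling moved strongly but not as a block. The metallothioneins, which bind zinc and copper, were at 276 and 249 at day 0 and 2361 and 1598 at day 1 for Mt1 and at 91.9 and 76.2 at day 0 and 1363 and 775 at day 1 for Mt2, with changes of 2.88 ± 0.14 and 3.60 ± 0.19. Replicate 1 of day 1 was the higher for both. Among 28 NRF2 targets and regulators 12 rose and 8 fell (4 fell after scaling by column sum, 3 after quantile scaling, 5 without control replicate 1 of day 0 or control replicate 2 of day 1). Gclc, the catalytic subunit that starts glutathione synthesis, rose from 527 and 507 to 1247 and 1265, and Me1, malic enzyme, fell from 7185 and 7417 to 3447 and 3891. Of 5 genes linked to the aryl hydrocarbon receptor, the aldehyde dehydrogenase Aldh3a1 rose most (69.8 and 43.3 at day 0 and 2565 and 2682 at day 1) and the oxidase Cyp1b1 fell (7073 and 8874 at day 0 and 2145 and 2171 at day 1). Of 19 p53 targets 4 rose and 7 fell, but 7 rose and 5 fell after scaling by column sum. The number that rose was 1 without control replicate 1 of day 0 and 2 without control replicate 2 of day 1. Mdm2, its negative regulator, was 6967 and 6601 at day 0 and 7086 and 6832 at day 1, and passed only after scaling by column sum (0.30) or quantile scaling (0.23).

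Many transcripts for building ribosomes rose while most of those for mitochondrial respiration fell. In ribosome assembly 31 of 56 members rose and 4 fell (median 0.34), or 44 and 2 after scaling by column sum. By role, 9 of 12 genes of the nucleolus and of RNA-modifying particles rose (median 0.68), 15 of 23 of the small subunit (0.42), 5 of 13 of the large subunit (0.18) and 2 of 8 of RNA polymerase I (-0.01). The examples below are mostly of the first role. Ncl, nucleolin, had counts of 8299 and 8574 at day 0 and 29509 and 26752 at day 1, and Npm1, nucleophosmin, had 11072 and 11491 at day 0 and 27319 and 22856 at day 1. Nop58, of the particles that methylate ribosomal RNA, had 1766 and 1732 at day 0 and 3476 and 3831 at day 1. Their changes were 1.74 ± 0.07, 1.15 ± 0.09 and 1.06 ± 0.08. Ddx10, the helicase targeted in the other arm, rose from 523 and 499.9 to 804 and 921 in the control (0.75 ± 0.12, limma adjusted p = 5.32e-05). Of 19 genes of nucleotide and polyamine synthesis 7 rose and 2 fell (13 and 1 after scaling by column sum, 10 and 1 after quantile scaling), with Ppat, the first enzyme of purine synthesis, from 715 and 691 to 1494 and 1458.

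For oxidative phosphorylation 59 of 74 members fell and 1 rose (median -0.65), or 38 and 3 after scaling by column sum. By prefix of the symbol, a grouping chosen after these values were seen, 10 of 14 Ndufa genes (median -0.73), 10 of 10 Ndufb genes (-0.79) and 8 of 11 Ndufs and Ndufv genes (-0.58) of complex I fell, and so did 7 of 8 Uqcr genes of complex III (-0.56), 11 of 14 Cox4 to Cox8 genes of complex IV (-0.61) and 13 of 17 Atp5 genes of ATP synthase (-0.67). Ndufb6 had counts of 1235 and 1389.9 at day 0 and 619 and 502 at day 1, Cox6b1 had 2019.7 and 2045 at day 0 and 1152 and 1008 at day 1 and Atp5h had 2333 and 2531 at day 0 and 1411 and 1308 at day 1. All 3 were lower on day 1 in both libraries, with changes of -1.23 ± 0.10, -0.91 ± 0.08 and -0.84 ± 0.08. Ndufs1, the member that rose, lost its call without either replicate of day 0 (limma adjusted p = 0.0839 and 0.121) or control replicate 2 of day 1 (0.655). Fewer members fell in the mitochondrial ribosome (32 of 77, median -0.28, with 3 rising) and in the proteasome list (20 of 39, median -0.30, with 3 rising). These modest falls depended on scaling: by column sum, 13 fell and 11 rose in the former and 9 fell and 8 rose in the latter. Without control replicate 2 of day 0, 21 members of the mitochondrial ribosome fell, and the 3 that rose were 0 without control replicate 1 of day 0 and 5 without control replicate 2 of either day. The 3 that rose in the proteasome list were 5 without control replicate 1 of day 1. In a fit on the 4 libraries alone 13 and 11 members of these lists fell. One of the 3 that rose in the proteasome list, Psmc3ip, shares only the prefix of the symbol and acts in recombination.

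Most glycolytic genes fell on the authors' scaling, but not under the other scalings. Of 23 members 14 fell and 4 rose (median -0.30). After scaling by column sum 9 fell and 8 rose (median -0.04), and after quantile scaling 8 fell and 6 rose (median 0.002). In a fit on the 4 libraries alone 9 fell and 1 rose, and without control replicate 2 of either day 2 rose. Pfkl, a phosphofructokinase, had counts of 3684 and 3229.5 at day 0 and 1410.4 and 1458 at day 1, Ldha, the lactate dehydrogenase, had 26872 and 25934 at day 0 and 14763 and 12771 at day 1, and Slc16a3, a lactate exporter, had 2347 and 2242 at day 0 and 141 and 150.4 at day 1. Of 14 hypoxia genes 10 fell and 2 rose. Adm, which encodes adrenomedullin, fell from 2042 and 1999.6 to 952 and 827, and Hif1a, whose protein drives the response, rose from 2334 and 2489.9 to 4223 and 5164. In the list of lysosome and autophagy 8 of 24 members rose and 10 fell, or 11 and 3 after scaling by column sum.

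Several chromatin genes rose. In the list of chromatin proteins of dividing cells 4 of 5 rose, in DNA methylation 5 of 8 rose and 1 fell, in H3K9 methylation 6 of 9 rose and 1 fell (0 fell in either list after scaling by column sum), and among Polycomb genes 7 of 14 rose and 3 fell (1 fell after scaling by column sum or without control replicate 2 of day 0). Dnmt1, which copies DNA methylation after replication, had counts of 2768 and 2471 at day 0 and 5561 and 5459 at day 1, and its partner Uhrf1 had 1583 and 1408 at day 0 and 2614 and 3032 at day 1. Tet2, which oxidises methylcytosine, had 168 and 135 at day 0 and 423 and 557 at day 1. Ezh2, the Polycomb methyltransferase, rose from 559 and 605 to 1222 and 1406 and Suv39h2, which methylates H3K9, from 63.9 and 91.6 to 256 and 334 (1.17 ± 0.09 and 1.92 ± 0.18). Dnmt3a, which sets methylation anew, had 1369 and 1261 at day 0 and 1098 and 1108 at day 1, and its fall (-0.25 ± 0.10) lost its call when any 1 of the 4 was left out (limma adjusted p = 0.0547 to 0.229) and was 0.01 after scaling by column sum. Of 35 Hox genes 15 fell and 1 rose, or 10 fell after scaling by column sum and 8 without control replicate 2 of day 1. Of 9 genes whose symbols start with Hoxb 6 fell, such as Hoxb9 (1073 and 1191 at day 0 and 623 and 579 at day 1), and of 7 that start with Hoxd 0 passed.

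The same step in the arm with the Ddx10 shRNA, in libraries that share none with the control step, went the same way for most genes. There 7900 genes (50.1%) changed, 4022 (25.5%) upward and 3878 (24.6%) downward. Of the control calls 6545 were called in the same direction in the knockdown, which is 75.5% of the control calls and 82.8% of the knockdown calls, and 14 were called in opposite directions. Across genes the 2 sets of changes correlated with r of 0.845. The test of the difference between arms called 43 genes (0.273%), 10 (0.0635%) with a larger and 33 (0.209%) with a smaller value in the knockdown, and 2023 at an unadjusted p under 0.05. The median of the interferon list was 1.15 in the knockdown against 1.89 in the control, but only 1 of its 42 members passed the test of the difference. Over the list the median difference, knockdown change minus control change, was -0.67, against 0.0006 over all genes. Over the 3228 genes picked for a control change of more than 2-fold, the median ratio of knockdown to control change was 0.841. Picking genes by their control change can by itself lower that ratio, so it cannot show whether smaller changes were particular to this list.

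Among named genes 13 differed. The 8 genes with the smallest p for this difference were named for that reason, so the count is not a share to set against that of all genes. Xaf1, an interferon-stimulated gene of cell death, rose from 117 and 118 to 745 and 861 in the control and from 202 and 197 to 358 and 554 in the knockdown, a difference of -1.61 ± 0.20 (limma adjusted p = 0.004). Egr1, a growth factor response gene, was at 3802 and 3930.2 at day 0 and 3499.6 and 3342 at day 1 in the control but at 1341 and 1319 and 3127 and 3553 in the knockdown (1.502 ± 0.21, limma adjusted p = 0.00823). For Egr1 both knockdown libraries were below both control libraries at day 0, and at day 1 the arms overlapped. Nr4a1, another gene of that class, fell from 3738 and 4089 to 1457 and 1236 in the control and from 2068 and 2106 to 1342 and 1288 in the knockdown (0.88 ± 0.12). Nebl, nebulette, rose from 35.8 and 35.8 to 131 and 126 in the control, and its counts were 123 and 123 at day 0 and 112 and 143 at day 1 in the knockdown (-1.77 ± 0.23). Hmox1, haem oxygenase, went from 3349.9 and 3245 to 2523 and 1667 in the control and from 8087 and 8421 to 2426 and 2158 in the knockdown (-1.17 ± 0.18). Ddx10, the targeted gene, rose in the control as above and was at 313 and 319 at day 0 and 255 and 321 at day 1 in the knockdown (-0.89 ± 0.16, limma adjusted p = 0.0343). That call of Ddx10 was lost without replicate 2 of either day of the control (limma adjusted p = 0.0567 and 0.0544), either replicate of day 0 of the knockdown (0.0788 and 0.0609) or knockdown replicate 1 of day 1 (0.124). The count of 43 was 662 without control replicate 1 of day 1, 21 without knockdown replicate 1 of day 1 and 1 in a fit on the 8 libraries of days 0 and 1. In that last fit the 1 gene was Egr1.

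**Figure D4:**
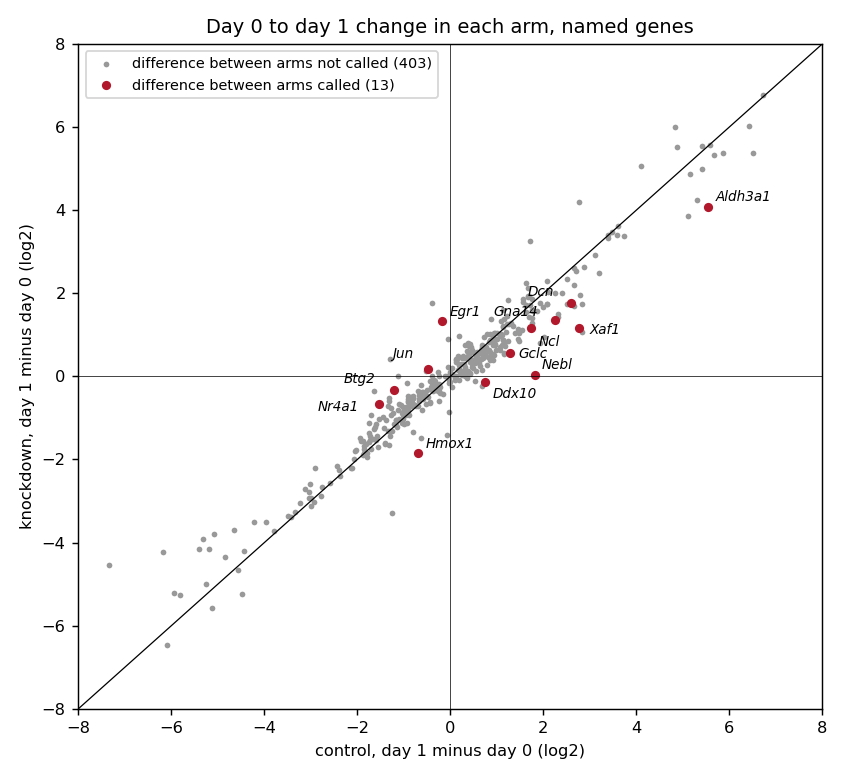
Day 1 minus day 0 in the control arm (x axis) and in the knockdown arm (y axis), in log2(normalized read count + 1), for the 416 named genes. The line marks equal change, and the 13 genes in red passed the test of the difference between arms. The named genes include the 8 with the smallest p for that difference.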

How the data were processed

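RNA from 20 libraries of mouse cells (2 in each of 10 groups of arm and day) was measured by RNA-seq. The deposited signal is 1 table of normalized read counts per gene, made by the authors before deposit. Per the submitters' processing notes, the tools were DESeq2 1.22.0, RSEM 1.2.22, Trim Galore 0.4.4 and STAR 2.5.2a, with build mm10; the role of each is not given in the sources used here. The values are fractional and whole reads were not recovered, so no count model was run and depth is unknown.

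Values were transformed to log2(value + 1) and fitted with limma 3.58.1 (R 4.3.3) with 10 group means, trended and robust variance moderation, and Benjamini-Hochberg adjustment over 15757 genes (threshold 0.05). No gene was filtered out. The contrasts were day 1 minus day 0 in each arm, and that change in the knockdown minus that change in the control. The code was tested on simulated data. Tables were handled in Python 3.11.15 with pandas 2.3.3, numpy 2.4.6 and scipy 1.17.1, and plots drawn with matplotlib 3.10.9. Of 1153 members written in 47 lists, 1128 were in the table. The lists and the genes described were chosen with earlier results of these data known. Named genes were preset core members of lists, the 12 largest rises and falls among called genes without overlap between days, with a mean of at least 50 in the higher day and a symbol that is no clone name or bare identifier, the 4 smallest p-values of each list, the 8 smallest of the difference between arms, and members against their list's majority where 5 or fewer. Replicate numbers did not pair the samples: over 45 pairs of groups the correlation of same-numbered deviations ran from -0.07 to 0.10, none over 0.1. Alternatives were other scalings, pseudocounts, a filter on low values, library weights, fewer libraries in the fit, a block for the replicate number and each replicate left out. Scaling by column sum was added after the data were seen.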

Additional observations from a re-analysis of the deposited data

Results flagged for a closer look

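For 13 named genes the change from day 0 to day 1 differed between the arms by the limma test of the difference itself. The named genes include the 8 with the smallest p for that difference. Values are the change in the knockdown minus the change in the control, on the log2(normalized read count + 1) scale. The difference was negative for Nebl (-1.77), Xaf1 (-1.61), Aldh3a1 (-1.46), Hmox1 (-1.17), Gna14 (-0.90), Ddx10 (-0.89), Dcn (-0.83), Gclc (-0.72) and Ncl (-0.57). It was positive for Egr1 (1.502), Nr4a1 (0.88), Btg2 (0.87) and Jun (0.66). Such a difference can come from the levels of either day. Aldh3a1 had counts of 152 and 139 at day 0 in the knockdown against 69.8 and 43.3 in the control. At day 1 it had 2551 and 2431 against 2565 and 2682. Btg2 had 1920 and 1865 at day 0 in the knockdown against 2749 and 3146 in the control. At day 1 it had 1467 and 1526 against 1292 and 1257. Counts of Egr1, Nebl, Hmox1 and Xaf1 in both arms are given above. Of 17 alternatives, 16 also called Nebl, Xaf1, Aldh3a1, Gna14, Egr1, Nr4a1, Btg2 and Jun, 15 called Hmox1 and Gclc, 11 called Ncl, 8 called Dcn and 7 called Ddx10. Dcn lost its call without control replicate 2 of day 0 (limma adjusted p = 0.0897) or of day 1 (0.0616), or without knockdown replicate 1 of day 0 (0.159) or of day 1 (0.170). Ncl lost its call without knockdown replicate 1 of day 0 (0.0793) or of day 1 (0.0955). All 13 kept their sign under all 17 alternatives.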

How the results depend on the processing

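For the control step, the number of called genes was 8664, and lay between 5816 and 8857 over all other settings, all within 1.5 times; leaving out 1 library gave 7489 to 8541. With the replicate block it was 8523 and 413 of 416 named genes kept their side of the threshold. The number called for the difference between arms was 43 and less stable: 1 in the compared libraries only, 9 with library weights, 28 without trend and robust settings, 101 with a pseudocount of 0.1, 26 after quantile scaling, 24 with the replicate block, and 21 to 662 on leaving out 1 library. The cause was not tested. Signs turned after quantile scaling for Col1a2 (0.13), Ctsd (0.25), Fn1 (0.15), Pkm (0.65), Timp3 (0.27) and Vim (0.41), and after scaling by column sum for Dnmt3a (0.011), H2afx (0.24), Impdh2 (0.26), Myc (0.032), Pes1 (0.24), Pkm (0.022), Ptgs2 (0.20), Shmt2 (0.25) and Vcam1 (0.24). In a window of 100 bases before the start, E2F was in 7 replication genes (17.9%). There ERSE was in 3 folding genes (12.5%) and CArG in 2 contractile genes (12.5%). Among all promoters the shares in that window were 4.36%, 0.0617% and 0.52%. Depth is unknown, so the precision of low counts cannot be given.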
